A study of Mus musculus with 6 samples.

Results

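The 33 genes described here encode enzymes that make, salvage and phosphorylate purine and pyrimidine nucleotides, together with folylpolyglutamate synthase (Fpgs), which keeps folate inside the cell. They were followed in cultured muscle stem cells of mice with and without an intact Med23 gene, which encodes a subunit of the Mediator complex. All 33 had a row of their own among the 32973 rows of the expression table and were found by symbol. The list was chosen by a reading of earlier results of these same libraries, that is, by the differences between knockout and control, so its counts and medians below are a description and support nothing by themselves. By role, 12 belong to purine synthesis de novo, 3 to purine salvage, 6 to pyrimidine synthesis and salvage and 7 to deoxynucleotide supply. The other 5 are the nucleotide kinases that serve several branches and Fpgs.

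The study compared 3 libraries of control cells, of genotype Med23flox/flox (Ctrl), with 3 libraries of cells of genotype Med23flox/flox::Pax7CreERT2 (Med23KO). Both groups therefore carry loxP-flanked Med23 alleles. The Cre recombinase, fused to an estrogen receptor domain that tamoxifen activates, is driven from the Pax7 gene of satellite cells. It is present in the knockout group alone, so that an effect of Cre and the loss of Med23 cannot be told apart. The cells were primary muscle stem cells from skeletal muscle, sorted by flow cytometry and grown for 3 days on collagen in serum and fibroblast growth factor. The labels list no treatment, no tamoxifen schedule, no age and no animal of origin, so a p-value here reflects the spread among 3 libraries of a group, and that spread may be technical.

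Purines are built stepwise on ribose phosphate. Prps1 and Prps2 encode the synthetases that activate the ribose, Ppat encodes the committed step, and Gart, Pfas, Paics, Adsl and Atic complete the ring of inosine monophosphate, which splits towards guanine nucleotides (Impdh1, Impdh2, Gmps) or adenine nucleotides (Adss, again Adsl). Pyrimidines are built as a ring first (Cad, Dhodh) and then joined to ribose (Umps), and ribonucleotide reductase (Rrm1, Rrm2) turns ribonucleotides into the building blocks of DNA. Dividing cells such as activated muscle stem cells depend on these routes, and in many cell types the transcription factor MYC binds E-box sequences near the genes that encode them.

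The E-box CACGTG was searched in the RefSeq promoter table (build GRCm38.p6, which is mm10), from 250 bases before to 50 bases after each annotated start. It reads the same on both strands. Of the members, 31 matched the table by symbol, with 38 windows of 300.0 bases, and Dhodh and Pfas did not. The E-box was present in 7 of the 38 windows (18.4%), and in 7.15% of all 32851 windows of the table, which include genes that these cells do not express. The 7 windows belong to 6 genes, shown here because Atic and Impdh2 are among the genes that fell. These genes belong to purine synthesis, deoxynucleotide supply and the shared kinases. No window of a salvage or pyrimidine gene held the E-box, but Dhodh had no window and sequence outside the windows was not searched. Each stretch is written along the gene's own strand, 5′ to 3′, with the E-box in capitals:
Atic, chr1:71557138-71557165, plus strand: gacctcggggtCACGTGgggtcgacacg
Impdh2, chr9:108560315-108560342, plus strand: agctcgataagCACGTGgttacccagct
Paics, chr5:76951088-76951115, plus strand: gcctcggaaagCACGTGgagggacctgc
Tyms, chr5:30073670-30073697, minus strand: accacttctgtCACGTGggggcggggtc
Dtymk, chr1:93802066-93802093, minus strand: tctcgaacttcCACGTGaccagagcctg
Nme1, chr11:93968274-93968301, minus strand: ctgcggggaacCACGTGaggccggggag
Nme1 at its other start, chr11:93968038-93968065, minus strand: gcttgatacgcCACGTGggctcgccttt
The ETS motif CCGGAAG (or CTTCCGG on the other strand) was present in 5 member windows (13.2%, against 8.86% of all windows), those of Dtymk, Tyms, Ppat, Gart and Prps1. The E2F motif TTTCCCGC (or GCGGGAAA) was present in 2 member windows (5.26%, against 1.07%), those of Ppat and Prps2, and TTTGGCGC (or GCGCCAAA) in 0 (against 0.514%). None of these matches overlapped another. They are matches of letters, with no binding data behind them.

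The deposited values are FPKM, which divide fragments by transcript length and by sequencing depth. The depth itself is unknown. The sum of FPKM was 697886 to 746973 in controls and 599738 to 675095 in knockouts. A large part of it came from the noncoding RNA Rmrp, at 225416 to 239590 and 173041 to 205244 FPKM. Med23 itself had 10.4, 11.7 and 10.2 FPKM in Ctrl replicates 1, 2 and 3 and 5.10, 5.86 and 4.23 FPKM in Med23KO replicates 1, 2 and 3. Every knockout value lay below every control value, and p was 0.1 in an exact permutation test (two-sided), the minimum for 3 against 3 libraries. The 8 markers of muscle stem cells and myoblasts, Pax7, Myf5 and Myod1 among them, summed to 1264 to 1959 FPKM in controls and 1091 to 1867 FPKM in knockouts. Myod1 made up most of these sums, and 0 of the 8 passed the test (limma; 1 lower and 1 higher at an unadjusted p under 0.05). The authors' deposited table called Itga7 lower and Cdh15 and Des higher, at 59.0%, 175% and 134% of control. The 8 fibroblast and fibro-adipogenic markers summed to 151 to 198 FPKM in controls and 209 to 317 FPKM in knockouts, so this sum moved with genotype. Col3a1 made up most of it, at 138 to 182 FPKM in controls and 183 to 286 FPKM in knockouts. Dpt and Pi16 stayed under 1 FPKM, were not tested and had their highest value in a control library. Of the 6 tested markers, 6 had a log2 fold change above 0 and 0 passed the test (limma). At an unadjusted p under 0.05, 3 were higher, and the authors' deposited table called 4 higher. The part of these markers in the results below was not tested. Endothelial markers summed to at most 8.48 FPKM, blood cell markers to at most 3.34 FPKM, pericyte and smooth muscle markers to at most 15.8 FPKM and Schwann cell markers to at most 1.84 FPKM in any library. None of the 36 markers was listed at 0 in all libraries, and 5 of the 6 blood cell markers, including Ptprc, stayed under 1 FPKM everywhere.

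Most nucleotide synthesis genes were lower in the knockout libraries. All 33 passed the filter of a mean of 1 FPKM. Their log2 fold changes (here and throughout knockout against control, on the log2(FPKM + 1) scale, which understates the change of low genes) were negative in 28 and positive in 5, from -0.82 to 0.12. The median was -0.28, against -0.03 over all 12336 genes tested. In 18 of the 33 genes the 3 knockout values lay below the 3 control values, and in 0 they lay above. Over all tested genes these shares were 14.7% below and 10% above. In bulk RNA, fewer cells that express a gene and less of its RNA per cell cannot be told apart.

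In the fit over all genes (limma, two-sided, Benjamini-Hochberg adjusted p under 0.05), 6 members fell and 0 rose, where 1.42% of all tested genes were called lower and 1.49% higher. The 6 are Mtap, Dctpp1, Fpgs, Pfas, Impdh2 and Atic, and 4 of the 5 roles hold at least 1 of them, the pyrimidine genes none. At an unadjusted p under 0.05 (limma) the counts were 18 lower and 0 higher, where 1344 of all 12336 tested genes were lower and 1090 higher. The authors' deposited table called 13 members lower and 0 higher by Cuffdiff, where it called 7.04% of its 13123 tested genes lower. The count of calls depended on single libraries. With 1 library left out, the number of members called was 0 without Ctrl replicate 1, 0 without Ctrl replicate 2, 0 without Ctrl replicate 3, 1 without Med23KO replicate 1, 0 without Med23KO replicate 2 and 9 without Med23KO replicate 3. Over the whole table the genes called lower were, in the same order, 44, 17, 45, 39, 10 and 400, against 175 with all libraries. The median over the members stayed between -0.33 and -0.29 in those refits. By gene, of 10 refits that kept all libraries Dctpp1 passed in 10, Fpgs in 9, Pfas in 8, Mtap in 7, Atic in 5 and Impdh2 in 5. For Atic and Impdh2 those 5 were pseudocounts of 0.1 and 0.5, a filter of 5 FPKM, library weights and a replicate block. The fit with weights did not converge, and the replicate numbers were not taken as pairs. Without a filter or without a variance trend neither gene passed. Of the 6 refits without a library Dctpp1 passed in 2 and each of the other 5 in 1, that without Med23KO replicate 3. Under scaling to equal medians Mtap (limma adjusted p = 0.0509), Impdh2 (0.0618) and Atic (0.0921) were no longer called. With equal sums without Rmrp they were not called either (0.0633, 0.0919 and 0.143), and after quantile normalization Impdh2 and Atic were not (0.0566 and 0.0737). The median over the members was -0.18 with 3 calls when libraries were scaled to equal sums without Rmrp. Under that scaling the median of all tested genes was 0.06, against -0.03 without it. The member median minus that of all tested genes was -0.24, against -0.25 without it. Scaling also moved the split of calls over the whole table, from 175 lower and 184 higher to 157 and 489 with equal sums, 201 and 298 after quantile normalization and 204 and 341 after median scaling.

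**Figure D1:**
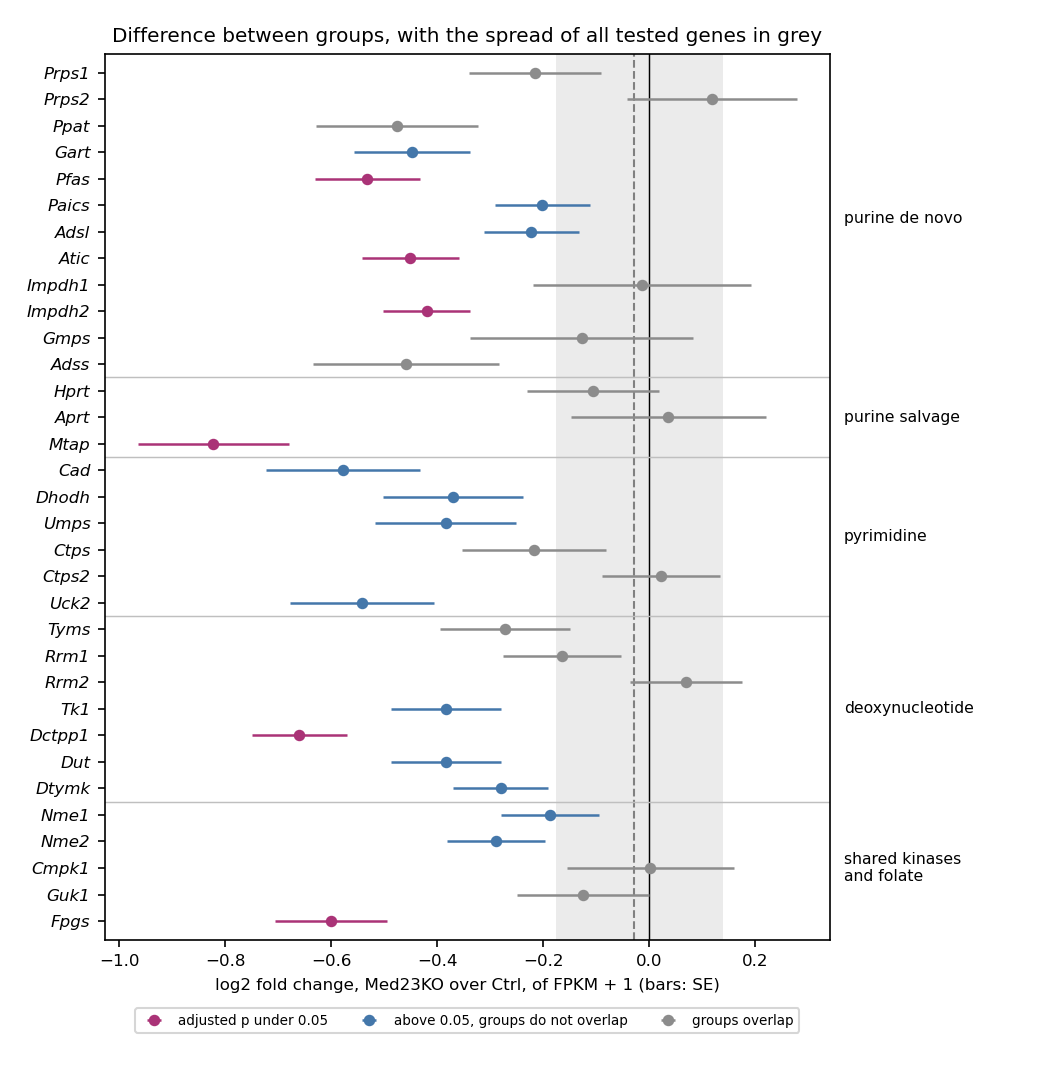
Log2 fold change of each gene (points, with standard errors as bars), grouped by role, for 3 Med23KO against 3 Ctrl libraries; the grey band spans the middle quartiles of all 12336 tested genes and the dashed line is their median of -0.03. The 6 genes past the threshold and the 12 others without overlap between groups all lie to the left of 0, and the 5 positive values lie close to it.

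In purine synthesis de novo 3 of 12 genes fell, Pfas, Atic and Impdh2, and 6 of 12 were lower without overlap between groups. The shares of all tested genes were 1.42% called lower and 14.7% lower without overlap. Pfas, which encodes the amidotransferase of the fourth step (ENSMUSG00000020899.16, mm10 chromosome 11, positions 68985697 to 69008460, minus strand), stood at 33.3, 35.9 and 30.5 FPKM in controls and 22.2, 23.7 and 22.0 FPKM in knockouts. The knockout libraries were nearly equal and all lay below the lowest control. Pfas fell to 68.1% of its control mean (33.3 ± 2.71 to 22.7 ± 0.947 FPKM, SD, n = 3, log2 fold change -0.53 with SE 0.0990, limma adjusted p = 0.0378). Atic, whose bifunctional enzyme closes the purine ring (ENSMUSG00000026192.13, mm10 chromosome 1, positions 71557150 to 71579631, plus strand), stood at 86.7, 94.4 and 92.9 FPKM in controls and 62.8, 65.7 and 71.4 FPKM in knockouts. Its groups were separated by a gap wider than the range within either, and it fell to 72.9% (log2 fold change -0.45 with SE 0.0909, limma adjusted p = 0.0480), just past the threshold.

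Gart, a trifunctional enzyme gene of the same route, had 42.6, 45.6 and 45.1 FPKM in controls and 28.8, 32.0 and 36.7 FPKM in knockouts. Its groups did not overlap, but the knockout libraries were spread and the log2 fold change of -0.45 (SE 0.110) missed the threshold (limma adjusted p = 0.0778). Ppat, the committed and rate-controlling step, had 18.9, 23.7 and 24.5 FPKM in controls and 13.8, 14.8 and 18.9 FPKM in knockouts. Med23KO replicate 3, at 18.946 FPKM, lay just above Ctrl replicate 1, at 18.859 FPKM, so that the groups touched despite a log2 fold change of -0.48 (SE 0.153). Paics, the bifunctional carboxylase and synthetase gene of the later ring steps, had 102, 110.3 and 111 FPKM in controls and 87.6, 95.9 and 97.9 FPKM in knockouts. Its groups did not overlap, with a log2 fold change of -0.20 (SE 0.0891). Adsl, the lyase used in both the ring pathway and the adenine branch, had 21.0, 21.2 and 19.7 FPKM in controls and 17.2, 18.1 and 17.3 FPKM in knockouts, again without overlap (log2 fold change -0.22 with SE 0.0905).

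Ppat and Paics lie head to head on mm10 chromosome 5. Ppat spans positions 76913249 to 76951578 on the minus strand and Paics spans 76951307 to 76967509 on the plus strand, so that the annotated genes share 272 bases at their starts. The library kit kept the strand, but whether the counting used it is not given in the sources used here. In all, 18 of the 33 members overlap another annotated gene. Per length, Paics was the more abundant of the pair, with a Paics to Ppat ratio of 5.42, 4.64 and 4.55 in controls and 6.36, 6.47 and 5.17 in knockouts. The ratios overlapped between groups.

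After inosine monophosphate the route splits, and the guanine branch holds the third of these falls. Impdh2, the inosine monophosphate dehydrogenase of proliferating cells (ENSMUSG00000062867.13, mm10 chromosome 9, positions 108560286 to 108565584, plus strand), stood at 146, 133 and 139 FPKM in controls and 102, 106 and 104 FPKM in knockouts. The 3 knockout values lay close together, well below the lowest control. Impdh2 fell to 74.5% (139 ± 6.54 to 104 ± 1.93 FPKM, SD, n = 3, log2 fold change -0.42 with SE 0.0821, limma adjusted p = 0.0433). Its isozyme Impdh1 had 19.8, 16.0 and 13.5 FPKM in controls and 19.7, 17.6 and 11.9 FPKM in knockouts, with overlapping groups and a log2 fold change of -0.01 (SE 0.206). The sign of Impdh1 turned positive under each alternative scaling of the libraries. Impdh2 made up 88.1%, 89.3% and 91.1% of the summed Impdh FPKM in controls and 83.8%, 85.7% and 89.7% in knockouts, and these shares overlapped.

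Gmps, which aminates xanthosine monophosphate to guanosine monophosphate, had 33.001, 44.1 and 52.5 FPKM in controls and 31.8, 36.8 and 49.7 FPKM in knockouts. The spread within each group was far wider than the difference between them (log2 fold change -0.13 with SE 0.210). Adss, the first enzyme of the adenine branch, had 63.6, 67.8 and 81.4 FPKM in controls and 41.0, 50.1 and 64.8 FPKM in knockouts. Med23KO replicate 3 reached into the control range, and the log2 fold change of -0.46 (SE 0.176) did not pass (limma adjusted p = 0.207), although the authors' deposited table called it lower (q = 0.00189).

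Neither gene of ribose activation separated the groups. Prps1 had 39.5, 46.1 and 47.1 FPKM in controls and 32.8, 39.4 and 42.0 FPKM in knockouts (log2 fold change -0.22 with SE 0.124). Prps2 had 23.0, 28.7 and 30.2 FPKM in controls and 24.4, 30.0 and 35.1 FPKM in knockouts, the highest log2 fold change of the 33 genes at 0.12 (SE 0.160). Both genes overlapped between groups, but their balance did not. Prps2 made up 36.8%, 38.4% and 39.1% of the summed Prps1 and Prps2 FPKM in controls and 42.7%, 43.3% and 45.5% in knockouts. These are shares of the same libraries that chose the list and were not tested. Prps1l3, a close relative of Prps1, was listed at 23.3 to 35.9 FPKM, and reads that match both genes could be divided between them; it was picked after its values were seen.

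**Figure D2:**
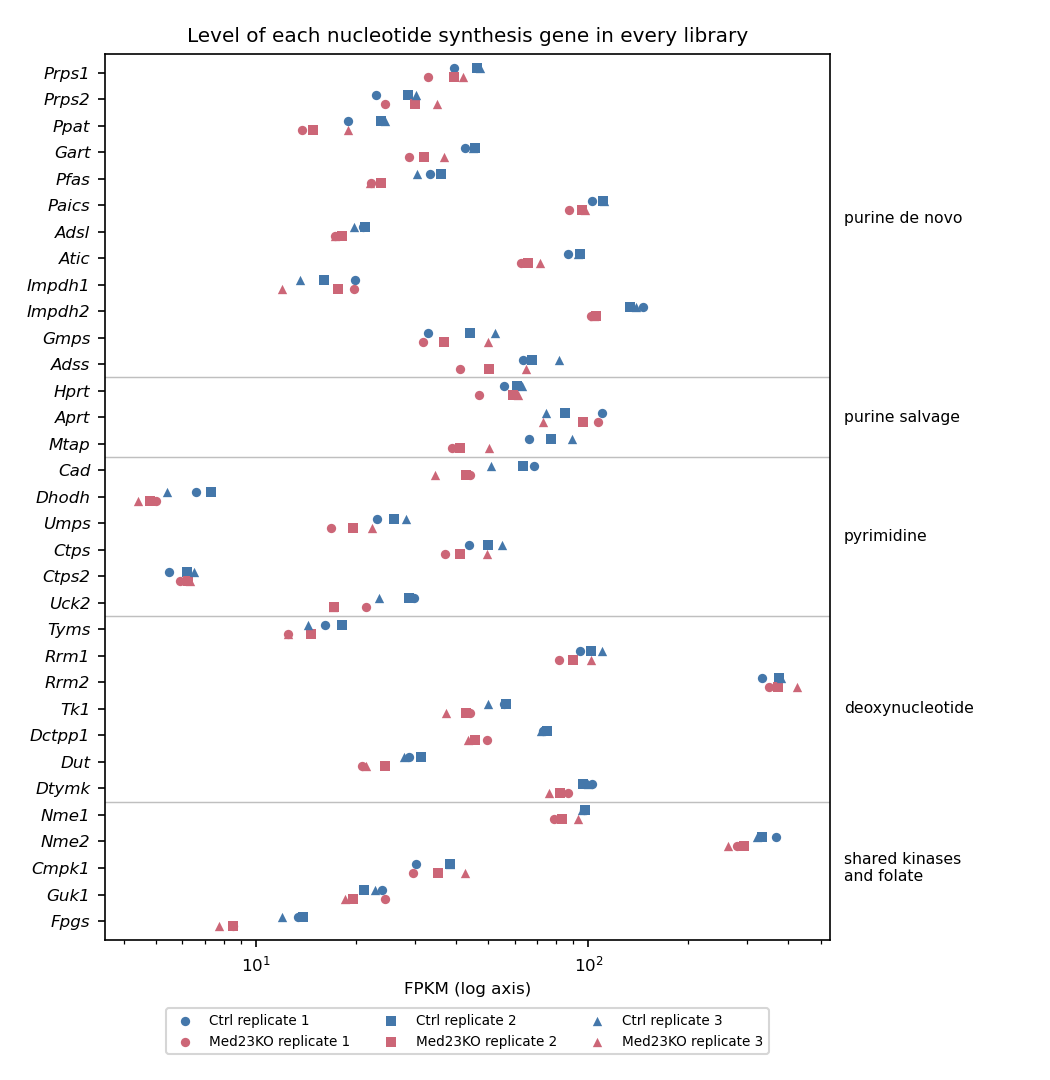
FPKM of each gene (log axis) in every library, grouped by role, with blue symbols for the 3 Ctrl and red symbols for the 3 Med23KO libraries and the same symbol shape for the same replicate number. Rrm2 and Nme2 are the most abundant members, Dhodh and Ctps2 the least, and separated colours mark genes such as Dctpp1, Impdh2 and Mtap whose groups do not overlap.

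Of the 3 purine salvage genes 1 fell, where 1.42% of all tested genes were called lower. Mtap, which splits methylthioadenosine, a by-product of polyamine synthesis, and so returns its adenine (ENSMUSG00000062937.7, mm10 chromosome 4, positions 89137122 to 89181081, plus strand), had the lowest log2 fold change of the 33 genes. It had 66.4, 77.1 and 89.2 FPKM in controls and 39.0, 41.0 and 50.04 FPKM in knockouts. The highest knockout library was still well under the lowest control. Mtap fell to 55.9% of its control mean (77.6 ± 11.4 to 43.3 ± 5.89 FPKM, SD, n = 3, log2 fold change -0.82 with SE 0.142, limma adjusted p = 0.0316). Hprt, which recycles hypoxanthine and guanine, had 55.8, 60.8 and 63.0 FPKM in controls and 46.8, 59.3 and 61.5 FPKM in knockouts (log2 fold change -0.11 with SE 0.124). Aprt, which recycles adenine, had 109.9, 85.1 and 74.3 FPKM in controls and 107, 96.2 and 73.1 FPKM in knockouts (log2 fold change 0.04 with SE 0.185). Hprt and Aprt both overlapped between groups, and Aprt ranged more widely among controls than between genotypes.

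In the pyrimidine branch 4 of 6 genes were without overlap and lower, against 14.7% of all tested genes. In the test over all genes 0 of 6 passed, and 4 were lower at an unadjusted p under 0.05 (limma). The authors' deposited table called 3 lower. Cad, the trifunctional enzyme gene that starts the pathway, had 68.7, 63.4 and 50.9 FPKM in controls and 43.9, 42.8 and 34.6 FPKM in knockouts. It stood at 66.3% of control (61.0 ± 9.15 and 40.4 ± 5.13 FPKM, SD, n = 3, log2 fold change -0.58 with SE 0.145, limma adjusted p = 0.0810), a larger difference than that of Atic or Impdh2 but with a wider spread. Cad passed the threshold when libraries were scaled to equal medians (limma adjusted p = 0.0428), the scaling under which Mtap, Impdh2 and Atic did not. Dhodh, the mitochondrial enzyme gene that oxidises dihydroorotate, was low throughout, with 6.59, 7.32 and 5.41 FPKM in controls and 4.99, 4.78 and 4.41 FPKM in knockouts (log2 fold change -0.37 with SE 0.133). Umps, which makes uridine monophosphate, had 23.0, 25.996 and 28.3 FPKM in controls and 16.8, 19.5 and 22.4 FPKM in knockouts (log2 fold change -0.38 with SE 0.133). In both Dhodh and Umps the groups were separate but close, with the highest knockout library next to the lowest control.

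Uck2, the uridine-cytidine kinase of pyrimidine salvage, had 29.9, 28.9 and 23.5 FPKM in controls and 21.4, 17.1 and 17.1 FPKM in knockouts. Its groups did not overlap (log2 fold change -0.54 with SE 0.136, limma adjusted p = 0.0816). The genes of both CTP synthases overlapped between groups. Ctps had 43.6, 49.8 and 54.8 FPKM in controls and 37.1, 40.9 and 49.4 FPKM in knockouts (log2 fold change -0.22 with SE 0.136). Ctps2, the less abundant of the pair per length, had 5.45, 6.19 and 6.52 FPKM in controls and 5.89, 6.25 and 6.31 FPKM in knockouts, with the knockout values inside the control range (log2 fold change 0.02 with SE 0.112). Ctps2 made up 10.6% to 11.1% of the pair's FPKM in controls and 11.3% to 13.7% in knockouts.

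Among the 7 deoxynucleotide genes 1 fell, and 4 were lower without overlap between groups, against 1.42% and 14.7% of all tested genes. Dctpp1, a pyrophosphatase that removes dCTP and its modified forms (ENSMUSG00000042462.4, mm10 chromosome 7, positions 127256959 to 127260709, minus strand), stood at 73.2, 74.9 and 72.0 FPKM in controls and 49.6, 45.5 and 43.3 FPKM in knockouts. The controls were nearly identical, and the gap to the knockouts exceeded the range of either group. Dctpp1 fell to 62.9% (73.4 ± 1.46 to 46.1 ± 3.17 FPKM, SD, n = 3, log2 fold change -0.66 with SE 0.0893), with the lowest adjusted p of the 33 genes (limma adjusted p = 0.0188).

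Dut, which hydrolyses dUTP and so keeps uracil out of DNA, had 28.8, 31.4 and 27.8 FPKM in controls and 20.9, 24.5 and 21.5 FPKM in knockouts. Tk1, the thymidine kinase of S phase, had 55.8, 56.6 and 49.9 FPKM in controls and 43.9, 42.7 and 37.2 FPKM in knockouts. Dtymk, which phosphorylates thymidine monophosphate, had 102, 96.0 and 99.6 FPKM in controls and 87.0, 82.0 and 76.1 FPKM in knockouts. None of these 3 genes overlapped between groups, with log2 fold changes of -0.38, -0.38 and -0.28, and none passed over all genes (limma adjusted p = 0.0994, 0.0994 and 0.140). Tyms, the thymidylate synthase gene, had 16.1, 18.1 and 14.3 FPKM in controls and 12.5, 14.7 and 12.5 FPKM in knockouts, with overlap at Med23KO replicate 2 (log2 fold change -0.27 with SE 0.122).

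Rrm1, the large subunit gene of ribonucleotide reductase, had 94.4, 102 and 109 FPKM in controls and 81.5, 89.7 and 102 FPKM in knockouts (log2 fold change -0.16 with SE 0.112). Rrm2, the S-phase small subunit gene and the most abundant member per length, had 334, 375 and 379 FPKM in controls and 349, 372 and 423 FPKM in knockouts (log2 fold change 0.07 with SE 0.105). Each gene overlapped between groups. Their ratio within a library did not: Rrm2 stood at 3.54, 3.68 and 3.46 times Rrm1 in controls and at 4.28, 4.15 and 4.15 times Rrm1 in knockouts. A ratio within a library does not depend on scaling by a single factor per library, but quantile normalization can change it. The Rrm2 to Rrm1 ratio was picked out after its values were seen and was not tested. Other pairs computed alongside overlapped between groups. Nme2 made up 77.0% to 79.1% of the summed Nme1 and Nme2 FPKM in controls and 73.8% to 78.0% in knockouts. Tk1 stood at 3.13 to 3.48 times Tyms in controls and at 2.91 to 3.52 times in knockouts.

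**Figure D3:**
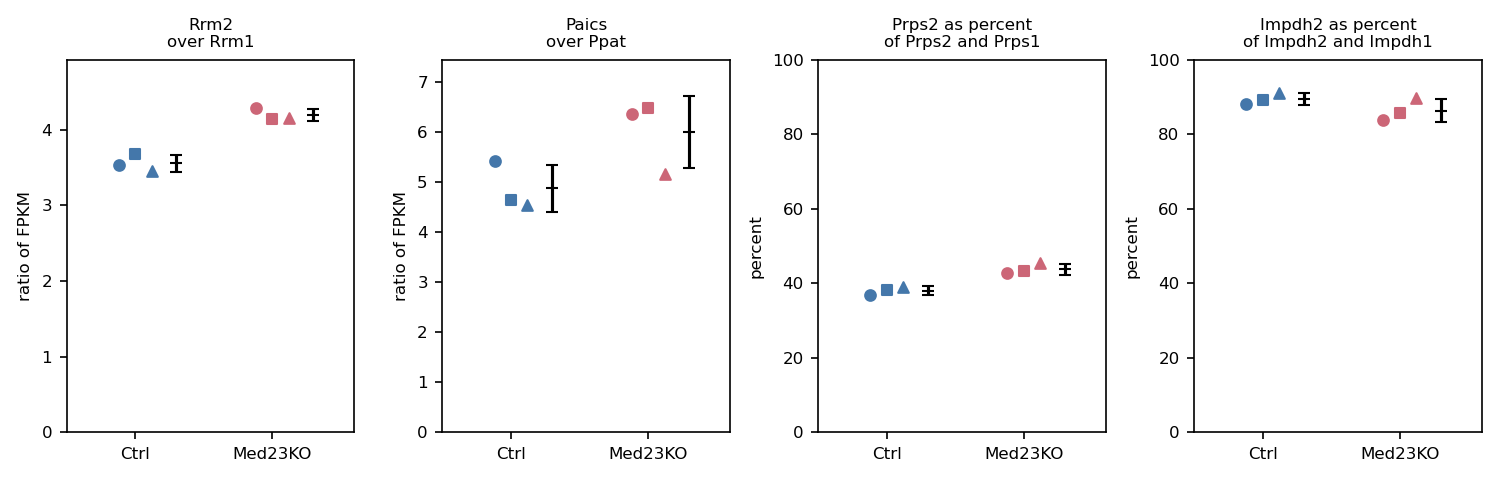
Ratios and shares of FPKM within each library for 4 pairs of members (points, shaped by replicate number; the bar is the mean and SD of 3 libraries; all axes start at 0). The Rrm2 to Rrm1 ratio and the Prps2 share do not overlap between groups, while the Paics to Ppat ratio and the Impdh2 share do.

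The kinases that serve several branches showed small differences. Nme2, a nucleoside diphosphate kinase gene, had 368, 334 and 321 FPKM in controls and 280.3, 293 and 263 FPKM in knockouts (log2 fold change -0.29 with SE 0.0926). Its neighbour Nme1 had 97.0, 97.3 and 95.9 FPKM in controls and 78.95, 83.1 and 93.1 FPKM in knockouts (log2 fold change -0.19 with SE 0.0923). Both were without overlap and missed the threshold. They lie 719 bases apart on the minus strand of mm10 chromosome 11, and the annotation also holds a gene model, Gm20390, that spans both, so their reads could be divided. Cmpk1, the kinase of uridine and cytidine monophosphate, had 30.2, 38.2 and 38.3 FPKM in controls and 29.5, 35.2 and 42.7 FPKM in knockouts, a log2 fold change of 0.00 (SE 0.158). Guk1, the guanylate kinase gene, had 23.9, 21.1 and 22.8 FPKM in controls and 24.4, 19.5 and 18.5 FPKM in knockouts (log2 fold change -0.12 with SE 0.125). Neither differed beyond the spread of its libraries.

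Fpgs adds glutamate to folate, which retains the cofactor that donates carbon to purines and thymidylate (ENSMUSG00000009566.12, mm10 chromosome 2, positions 32682609 to 32704145, minus strand). It had 13.4, 13.9 and 11.97 FPKM in controls and 8.54, 8.54 and 7.73 FPKM in knockouts. The groups were tight and well apart, and Fpgs fell to 63.3% (13.1 ± 0.981 to 8.27 ± 0.468 FPKM, SD, n = 3, log2 fold change -0.60 with SE 0.106, limma adjusted p = 0.0333).

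Libraries of the same group differed among themselves in a way that many members shared. Of the 33, 14 were lowest in replicate 1 and highest in replicate 3 of both groups, among them Gmps, Adss, Prps1, Prps2, Rrm1, Rrm2, Ctps and Cmpk1, and 11.7% of all tested genes had that order. Another 4, Impdh1, Aprt, Cad and Uck2, were lowest in replicate 3 and highest in replicate 1 of both groups, as 20.7% of all tested genes were. Members of the first kind include most of those whose groups overlapped. The median coefficient of variation over the members was 8.16% among controls and 11.3% among knockouts, against 12.5% and 14.2% over all tested genes. Relative to the control mean, the median over the 33 genes was -0.02, 0.04 and 0.01 (log2) in Ctrl replicates 1, 2 and 3. It was -0.34, -0.25 and -0.27 in Med23KO replicates 1, 2 and 3, so the 3 knockout libraries lay together, below the controls. The corresponding medians over all tested genes were 0.01, 0.01 and -0.10 in the knockout libraries.

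**Figure D4:**
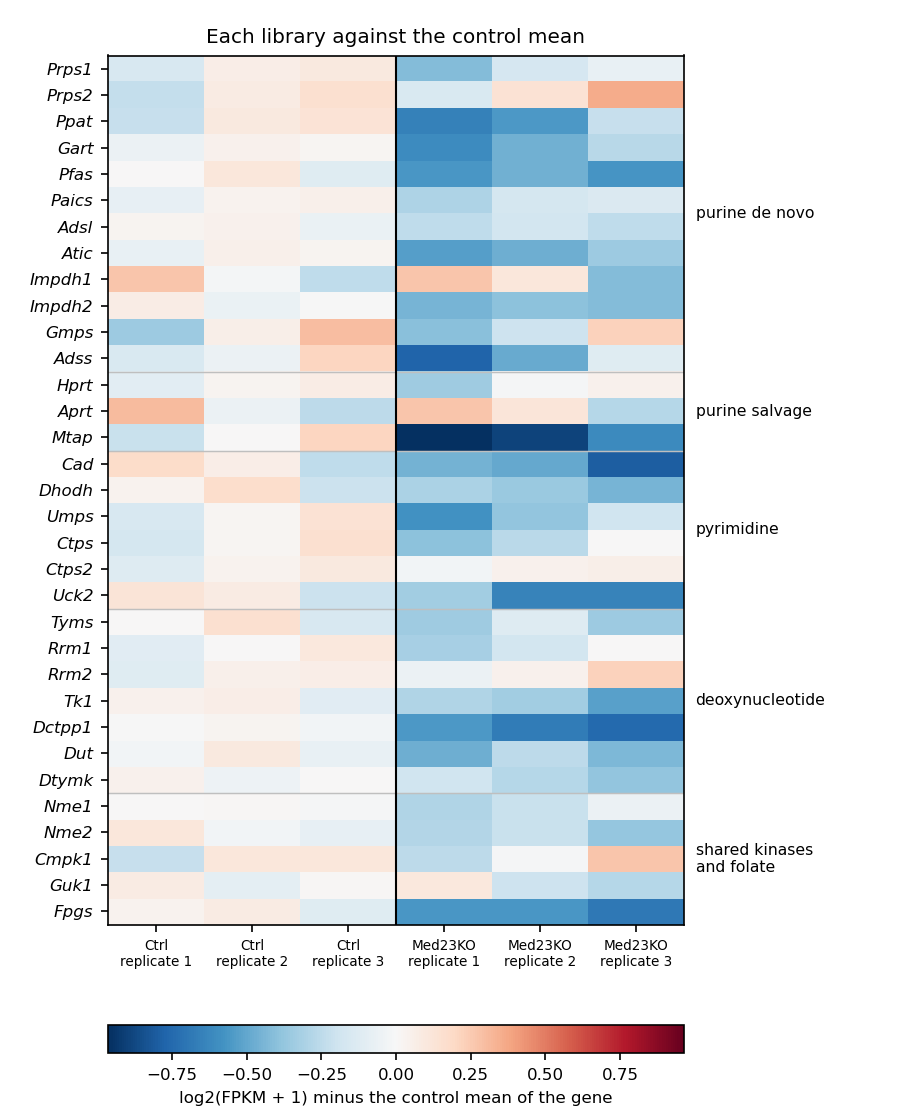
Each library's log2(FPKM + 1) minus the control mean of the gene, for the 33 genes by role (rows) and the 6 libraries (columns); blue is below and red above the control mean. Blue fills most of the 3 Med23KO columns, with a median of -0.34, -0.25 and -0.27, while Gmps, Cmpk1 and Rrm2 are blue in replicate 1 and red in replicate 3 of both groups.

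By role, the median log2 fold change was -0.32 for purine synthesis de novo, -0.38 for the pyrimidine genes, -0.28 for the deoxynucleotide genes, -0.19 for the shared kinases with Fpgs and -0.11 for the 3 salvage genes. The salvage median was -0.0095 with equal sums without Rmrp, -0.053 after quantile normalization and -0.18 without Med23KO replicate 3. The roles were not tested against each other. Expression levels per length spanned from 6.05 FPKM (Ctps2) to 363 FPKM (Rrm2) among control means. Rrm2 and Nme2 (341 FPKM) overlapped in their control libraries, and Impdh2 (139 FPKM) came next without overlap with either. The 3 genes that fell most had control means of 77.6 FPKM (Mtap), 73.4 FPKM (Dctpp1) and 13.1 FPKM (Fpgs).

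Of the 6 genes with an E-box in the promoter windows shown above, Atic and Impdh2 fell, Paics, Dtymk and Nme1 were lower without overlap and without passing the test, and Tyms overlapped. Mtap, Dctpp1 and Fpgs, which also fell, had no CACGTG in their windows. Myc, which encodes a factor that can bind E-boxes, fell to 52.7% of its control mean (log2 fold change -0.90, limma adjusted p = 0.0368). Myc was the single call among 9 tested transcription factor genes of a list chosen for this pathway. Its dimer partner Max had 25.9, 25.6 and 24.9 FPKM in controls and 21.2, 21.9 and 19.3 FPKM in knockouts, without overlap and without passing (limma adjusted p = 0.156); Max was picked after its values were seen. Of the 9 genes, 5 were lower without overlap, against 14.7% of all tested genes. At an unadjusted p under 0.05 (limma) 3 of the 9 were lower. The authors' deposited table called 2 of the 9 lower, and 3 of all 10 listed genes changed. E2f2 stood at 67.6% of its control mean without overlap (limma adjusted p = 0.180) and was called lower by the authors. It was picked after its values were seen. The median of the transcription factor list was -0.18. Whether Myc bears on the members was not tested.

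The genes that supply carbon units to purines and thymidylate are listed here as neighbours of the pathway. Of 13 tested, 3 fell and 0 rose, 8 were lower without overlap, and the median was -0.29. Among all tested genes 1.42% were called lower and 14.7% were lower without overlap. The folate carrier gene Slc19a1 fell to 52.5% of control, from 16.9, 15.6 and 13.03 FPKM to 8.27, 7.71 and 7.96 FPKM (log2 fold change -0.84 with SE 0.120, limma adjusted p = 0.0199). The serine hydroxymethyltransferase genes Shmt2 and Shmt1, mitochondrial and cytosolic, fell to 66.8% and 63.8% (limma adjusted p = 0.0271 and 0.0331). Mthfd2 had 34.1, 32.3 and 33.2 FPKM in controls and 30.6, 29.5 and 30.0 FPKM in knockouts (log2 fold change -0.14). Mthfd2 did not overlap between groups and did not pass the test. The number called was 0 or 1 when any library other than Med23KO replicate 3 was left out.

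Of 25 tested genes of the remaining nucleotide kinases and salvage enzymes, 0 passed the test (limma). At an unadjusted p under 0.05 (limma) 6 were lower and 1 higher, and the authors' deposited table called 2 lower and 1 higher. Without overlap 8 were lower and 1 higher, against 14.7% and 10% of all tested genes. The median of the 25 genes was -0.15. Among them Adssl1, the muscle isozyme of Adss, had 3.10, 3.43 and 3.59 FPKM in controls and 1.05, 1.59 and 2.25 FPKM in knockouts (log2 fold change -0.76, limma adjusted p = 0.0764). Ak1, an adenylate kinase of muscle, had 46.8, 34.7 and 30.3 FPKM in controls and 78.6, 64.2 and 38.2 FPKM in knockouts, with overlap. Adssl1 and Ak1 were picked after their values were seen.

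Genes of DNA replication and division, which many deoxynucleotide genes accompany in S phase, had a median of -0.16 over 13 tested. Of the 13, 0 were called and 5 were lower at an unadjusted p under 0.05 (limma). The authors' deposited table called 4 lower. Without overlap 7 were lower, against 14.7% of all tested genes. Mcm6 had 76.5, 81.2 and 84.6 FPKM in controls and 59.7, 59.5 and 65.2 FPKM in knockouts. Pcna had 284, 281 and 279 FPKM in controls and 244, 240.2 and 273 FPKM in knockouts. Mki67, which marks cycling cells, had 80.1, 82.3 and 96.5 FPKM in controls and 85.3, 84.1 and 88.8 FPKM in knockouts, with the knockout values inside the control range. The part of the cell cycle in the lower deoxynucleotide genes was not tested.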

How the data were processed

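RNA of 6 samples, 3 Ctrl and 3 Med23KO, was sequenced from strand-specific poly(A) libraries, per the labels' protocols. The authors deposited 1 table of FPKM per gene and library, with Cuffdiff p-values, q-values and a test statistic, a score. FastQC, cutadapt, STAR, Cuffdiff and build mm10 are named in the submitters' processing notes. Their versions, and the strand setting, are not stated there. Read depth could not be recovered from the FPKM values and is unknown, so no counting error is given.

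FPKM were taken as log2(FPKM + 1), and the 12336 genes whose mean reached 1 FPKM were fitted together with limma 3.58.1 in R 4.3.3 (trended variance, Ctrl and Med23KO, no covariate). P-values were adjusted over all of them by Benjamini-Hochberg, with a threshold of 0.05. The fit was tested on simulated data of 12336 genes, with noise drawn independently for each gene and library. It recovered 32.8% of 1.5-fold, 73.1% of 2-fold and 98.5% of 4-fold changes in Med23KO against Ctrl. The changed genes had a mean of at least 5 FPKM, and 10 of the 146 calls were false. The simulated libraries lacked the replicate order that many genes shared here, so recovery in these data may differ.

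The members, the 6 other pathway lists and the 6 marker lists were chosen with earlier results of these data known. All members are named, with Med23; of the other lists, up to 4 called genes with the smallest adjusted p and a few set genes (Myc, Shmt2, Mthfd2, Mki67, Pcna, Mcm6) are named, and any other gene is marked as picked after its values were seen, except the markers, of which a few are named with their lists. The values of 1 further set gene are not reported here. Motifs were searched in RefSeq promoter windows. Alternatives covered the pseudocount, the filter, the scaling, the variance model, a replicate block, the authors' q-values and each library left out.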

Additional observations from a re-analysis of the deposited data

How the results depend on the processing

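The median over the 33 genes stayed negative in every refit, but the number of calls did not hold. Without a filter on low values 1 member was called lower, with 84 lower and 73 higher genes over the table. Called higher over the table were 298 genes after quantile normalization and 341 after median scaling. Scaling to equal sums without Rmrp gave 3 members and 489 higher genes, with medians of -0.18 (all members), -0.23 (purine de novo), -0.29 (pyrimidine), -0.18 (deoxynucleotide) and -0.090 (shared kinases with Fpgs, -0.13 after quantile normalization). The median of all tested genes was 0.058 with equal sums, against -0.028 without scaling. Without a variance trend 3 members were called. Library weights, whose fit stopped before it converged and gave Ctrl replicate 2 a weight of 7.76, called 15 members and 850 lower and 850 higher genes, with medians of -0.33, -0.47 (pyrimidine), -0.40 (deoxynucleotide) and -0.23 (shared kinases with Fpgs). The authors' deposited q-values called 13 members and 924 lower and 1130 higher genes. The purine salvage median was -0.0095 with equal sums, -0.053 after quantile normalization and -0.20 with library weights. The causes were not tested.

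Same-numbered libraries correlated at 0.44, -0.02 and 0.56 in their deviations from the group means (12336 genes). Ctrl replicate 3 and Med23KO replicate 1 correlated at -0.42, and Ctrl replicate 1 and Med23KO replicate 3 at -0.57. Not every library correlated best with its own number, so the numbers were not taken as pairs. Whether same-numbered libraries belong together was not tested, and the p-values of the main fit take no pairing into account. With a replicate block 22 members and 1577 lower and 1180 higher genes were called; in the other lists the block called 8 (other kinases and salvage), 7 (breakdown), 7 (one-carbon), 2 (transport), 4 (transcription factors) and 5 (S phase). In those lists library weights called 4, 2 and 5 of the first 3 and 4 of S phase, and the authors' q-values called 3, 3, 6, 1, 3 and 4. The other kinases gained 1 call with a mean of at least 5 FPKM, 1 after quantile normalization and 1 after median scaling, and the transcription factors had 0 without a filter.

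With 1 library left out, 0 to 9 members were called, and 10 to 400 genes lower and 3 to 754 higher over the table. Medians ran from -0.33 to -0.29 (all members), -0.41 to -0.33 (pyrimidine), -0.35 to -0.25 (deoxynucleotide), -0.25 to -0.17 (shared kinases with Fpgs) and -0.18 to -0.078 (purine salvage). Calls in the lists ran from 0 to 4 (other kinases; one-carbon) and 0 to 1 (breakdown; transcription factors; S phase). Members that changed sign were all uncalled: Impdh1 (-0.15 to 0.19), Gmps (-0.30 to 0.023), Hprt (-0.18 to 0.014), Aprt (-0.089 to 0.19), Ctps2 (-0.040 to 0.070), Rrm2 (-0.0071 to 0.13), Cmpk1 (-0.13 to 0.13) and Prps2 (-0.0014 to 0.25). Library weights gave Prps2 -0.031, Impdh1 0.11, Ctps2 -0.018, Rrm2 -0.014, Cmpk1 -0.17 and Guk1 0.021. Impdh1 was 0.025 after quantile normalization, 0.0097 after median scaling and 0.078 with equal sums, and Ctps2 was -0.0011 after quantile normalization.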

Other observations

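Nucleotide breakdown, which opposes the routes above, held 15 tested genes with a median log2 fold change of -0.14, and 0 passed the test (limma; 3 lower and 1 higher at an unadjusted p under 0.05, 2 and 1 in the authors' deposited table). Xdh, which oxidises hypoxanthine to uric acid, was listed at 1.18, 0.786 and 0.632 FPKM in controls and 3.68, 2.12 and 1.49 FPKM in knockouts, and its groups did not overlap (log2 fold change 0.84 with SE 0.249, limma adjusted p = 0.123). Dnph1, a hydrolase of deoxynucleotides, had 19.5, 20.5 and 20.5 FPKM in controls and 13.6, 16.2 and 16.1 FPKM in knockouts (log2 fold change -0.38 with SE 0.105, limma adjusted p = 0.103). Both were picked after their values were seen.

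Of 4 tested nucleoside transporter genes 0 passed (limma; 1 lower at an unadjusted p under 0.05 and 1 in the authors' deposited table), and all 4 overlapped between groups. The equilibrative transporter Slc29a1, the most abundant of them per length, had 116, 119 and 90.2 FPKM in controls and 98.5, 99.9 and 71.1 FPKM in knockouts. The concentrative transporter genes Slc28a1, Slc28a2 and Slc28a3 stayed under 1 FPKM in every library. Slc29a1 and the Slc28a genes are given here after their values were seen.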
